A study of Mus musculus with 8 samples.

Results

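Shared p300 peaks at promoters are the p300 intervals called both without (Ctl) and with bexarotene (Bex) whose center lies within 1 kb of the transcription start site (TSS) of a protein-coding transcript. They were chosen by overlap of at least 1 bp between the Ctl and Bex deposited p300 lists, with the Bex interval standing for each peak, and 579 of the 9154 Bex intervals met this rule. The p300 histone acetyltransferase was measured by ChIP-seq in C2C12, an established mouse myoblast line of C3H origin that fuses into myotubes in low serum. Cells were differentiated for 24 h in medium with horse serum alone (Ctl) or with 50 nM bexarotene, a ligand selective for the retinoid X receptor (RXR), added when differentiation was induced. There was 1 p300 library and 1 library of the myogenic factor myogenin per condition, so differences between conditions have no replicate check and no p-value is given. Each list gives positions only, on the mm9 build, without tag counts or scores, and the depth of the libraries cannot be read from it.

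p300 and its paralog CBP acetylate histones and other proteins, and they reach DNA through transcription factors instead of binding a sequence of their own. p300 is best known as a mark of active enhancers, but it also sits at active promoters, where acetylation keeps nucleosomes open and helps to load the transcription machinery. In muscle cells p300 is a coactivator of MyoD, which like myogenin binds E-boxes.

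The sequences at the center of a few members show the kinds of promoter in the set. Each is 121 bases of the mm9 genome, 60 bases to either side of the center of the Bex interval. Each is written in the direction of the nearest gene and free of annotated exons. Only the consensus named for a sequence is in capitals, and matches to other elements stay in lower case. The first set carries an AP-1 site, TGAGTCA or TGACTCA, the element bound by Fos and Jun family dimers. They are the peaks upstream of Fosl2, a Fos family member (chr5:32438194-32438314, plus strand), Vim, the intermediate filament protein vimentin (chr2:13495132-13495252, plus strand), and Tagln2, the actin-binding protein transgelin 2 (chr1:174431223-174431343, plus strand).
Fosl2: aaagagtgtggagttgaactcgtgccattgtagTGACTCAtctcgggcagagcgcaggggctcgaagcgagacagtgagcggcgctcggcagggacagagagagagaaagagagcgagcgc
Vim: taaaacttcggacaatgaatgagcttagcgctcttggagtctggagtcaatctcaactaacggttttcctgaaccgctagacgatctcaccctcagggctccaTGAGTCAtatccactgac
Tagln2: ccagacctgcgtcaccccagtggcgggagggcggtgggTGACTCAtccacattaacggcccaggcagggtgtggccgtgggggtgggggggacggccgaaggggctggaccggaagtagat

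The second set carries an E-box of the form favored by myogenic factors, CAGCTG or CACCTG, inside a myogenin interval. The latter reads CAGGTG where it lies on the opposite strand. Chrna1 (chr2:73418408-73418528, minus strand) and Chrng (chr1:89102215-89102335, plus strand) encode the alpha 1 and gamma subunits of the muscle acetylcholine receptor. Angpt1 (chr15:42508981-42509101, minus strand) encodes the vascular ligand angiopoietin 1. At Cd63, a tetraspanin gene (chr10:128346750-128346870, plus strand), an AP-1 site and an E-box stand side by side and both are capitalized.
Chrna1: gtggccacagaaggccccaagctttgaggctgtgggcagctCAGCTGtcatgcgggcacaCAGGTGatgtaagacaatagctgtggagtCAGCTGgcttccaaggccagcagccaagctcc
Chrng: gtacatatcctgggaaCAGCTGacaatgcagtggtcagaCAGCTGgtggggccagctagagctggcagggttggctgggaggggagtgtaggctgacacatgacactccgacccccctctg
Angpt1: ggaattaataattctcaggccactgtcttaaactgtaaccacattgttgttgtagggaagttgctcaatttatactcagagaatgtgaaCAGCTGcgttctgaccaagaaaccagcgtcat
Cd63: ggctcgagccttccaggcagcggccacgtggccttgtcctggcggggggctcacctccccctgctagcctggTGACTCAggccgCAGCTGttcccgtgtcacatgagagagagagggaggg

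The third set is the GC-rich kind that made up most of the members. Ets1 (chr9:32503368-32503488, plus strand), which encodes a transcription factor, and Phip (chr9:82869253-82869373, minus strand), which encodes a bromodomain protein, carry the GC box GGGCGG, an element bound by Sp and Klf factors, which in both peaks lies on the opposite strand and reads as its complement. Dusp1, a phosphatase that switches off MAP kinases (chr17:26645510-26645630, minus strand), carries the full Atf/Creb site TGACGTCA. GC boxes also stand next to it on either side, in lower case.
Ets1: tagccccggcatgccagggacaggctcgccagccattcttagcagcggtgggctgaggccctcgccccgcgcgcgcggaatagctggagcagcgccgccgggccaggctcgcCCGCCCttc
Phip: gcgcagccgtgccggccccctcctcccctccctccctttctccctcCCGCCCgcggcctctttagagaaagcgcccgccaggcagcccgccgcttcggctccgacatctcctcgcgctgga
Dusp1: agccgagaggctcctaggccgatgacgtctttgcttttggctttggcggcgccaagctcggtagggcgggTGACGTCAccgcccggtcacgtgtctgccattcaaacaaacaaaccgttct

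The p300 lists differ in size, with 22051 Ctl intervals that cover 6156 kb and 9154 Bex intervals that cover 2048 kb. Of the Bex intervals, 7298 overlapped a Ctl interval, 579 of them at promoters and 6719 farther from a TSS (shared distal). A further 1844 promoter peaks were called in Ctl only and 553 in Bex only. The difference in list size can come from the treatment or from the depth or quality of a library, and with 1 library per condition these cannot be told apart. For the same reason, a peak of one list only may be present and under the calling threshold in the other. The myogenin lists hold 5912 Ctl and 6642 Bex intervals.

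The 579 members had 559 nearest genes, and 589 protein-coding genes had a TSS within 1 kb of a member, which is 2.65% of the 22238 coding genes of the annotation. A p300 promoter peak of any kind lay at 2372 genes in Ctl, at 1165 in Bex and at 671 in both. For 18 nearest genes there were 2 or more members. Lims1, which encodes the focal adhesion adaptor PINCH1, had 4, at -983, -495 and 256 bp from one TSS and 461 bp from another. Actb and Vim had 2 each.

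Members lay mostly just upstream of the start. The median center was -60 bp from the nearest TSS (quartiles -178 and 33 bp), where a negative distance means upstream. The center was upstream in 394 of 579 members, 68.0% (95% Wilson interval 64.1 to 71.7%). In control-only promoter peaks this share was 54.0% (51.7 to 56.2%), a difference of 14.1 percentage points (Newcombe interval 9.57 to 18.4). In bexarotene-only peaks it was 62.0%, and the difference of 6.02 points had an interval of 0.468 to 11.5. The rule set how far a center may lie from a TSS but not its side. These intervals treat peaks as independent and cover counting error only, not the variation between cultures.

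**Figure D1:**
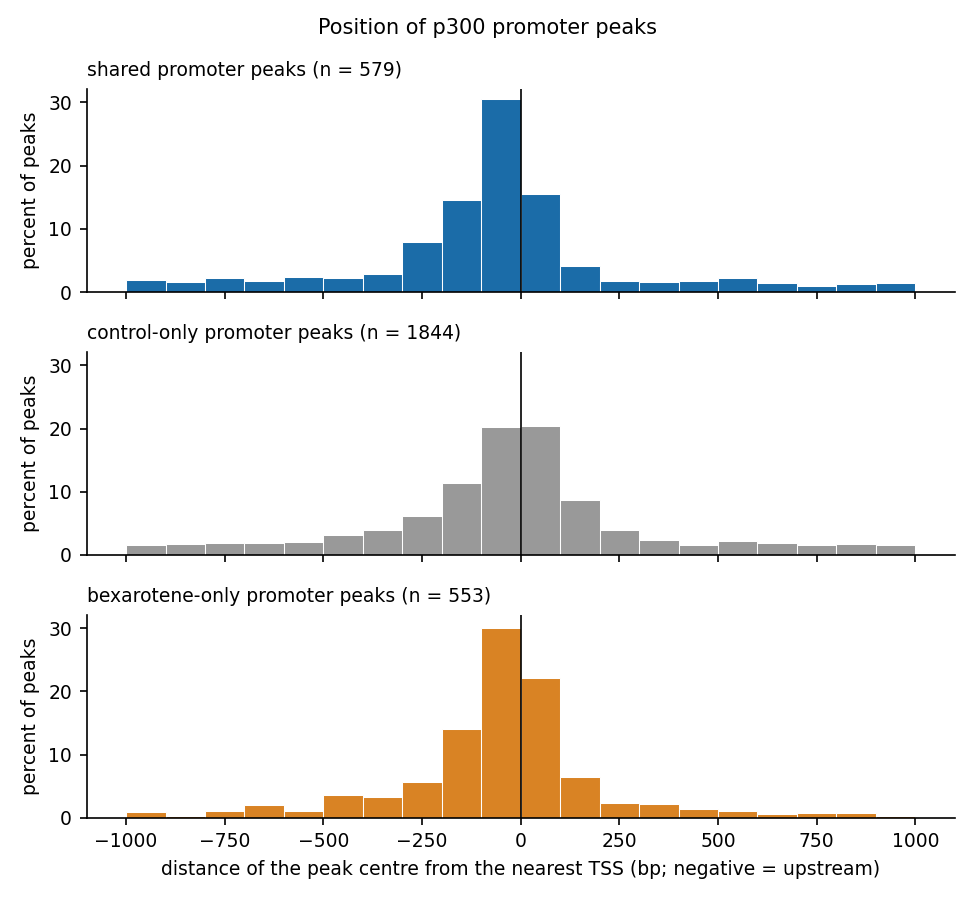
Percent of peaks (vertical axis) in 100-bp bins of the distance of the peak center from the nearest protein-coding TSS (horizontal axis, bp), for the shared, control-only and bexarotene-only promoter peaks. The shared peaks lean to the upstream side, with 68.0% of centers at negative distances against 54.0% for control-only peaks.

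Within 100 bp of the TSS lay 268 members (46.3%), from 101 to 300 bp 163 (28.2%), and from 301 to 1000 bp 148 (25.6%). The center fell in an annotated exon for 162 members (28.0%), in an intron for 148 (25.6%) and outside any transcript for 269 (46.5%). For 28 members (4.84%) coding start sites on both strands lay within 1 kb of the center. Another Ctl p300 interval lay within 10 kb of 245 members (42.3%), and another Bex interval within 10 kb of 140 (24.2%). Just inside the 1 kb limit were the peaks at Cdk14 (986 bp) and Lrrc16a (991 bp). Just outside were those at Sipa1l1 (1003 bp) and Omd (-1007 bp).

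Interval lengths come from the lists that chose the members and are given as a description. The median member was 158 bp long in Bex and 249 bp in Ctl, and its median Bex to Ctl length ratio was 0.786. The caller gives no interval under 158 bp in Bex and 159 bp in Ctl, and 54.6% of members had that smallest length in Bex, 26.4% had it in Ctl and 108 (18.7%) had it in both. By more than 1 bp, 369 members were longer in Ctl, while 96 were longer in Bex. The change was at least 1.5 times in Ctl's favor for 213 members and in Bex's favor for 22. Shared distal peaks had a lower ratio, with a median of 0.648 (204 bp in Bex and 349 bp in Ctl). Of the shared distal peaks, 39.6% had the smallest length in Bex and 8.14% in Ctl. The smallest length therefore limits the ratio in unlike shares of both classes. The centers of the paired intervals lay a median of 42 bp apart and at most 382 bp. The smallest overlaps were 6 bp, at Acadsb, and 9 bp, at Cyp51.

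**Figure D2:**
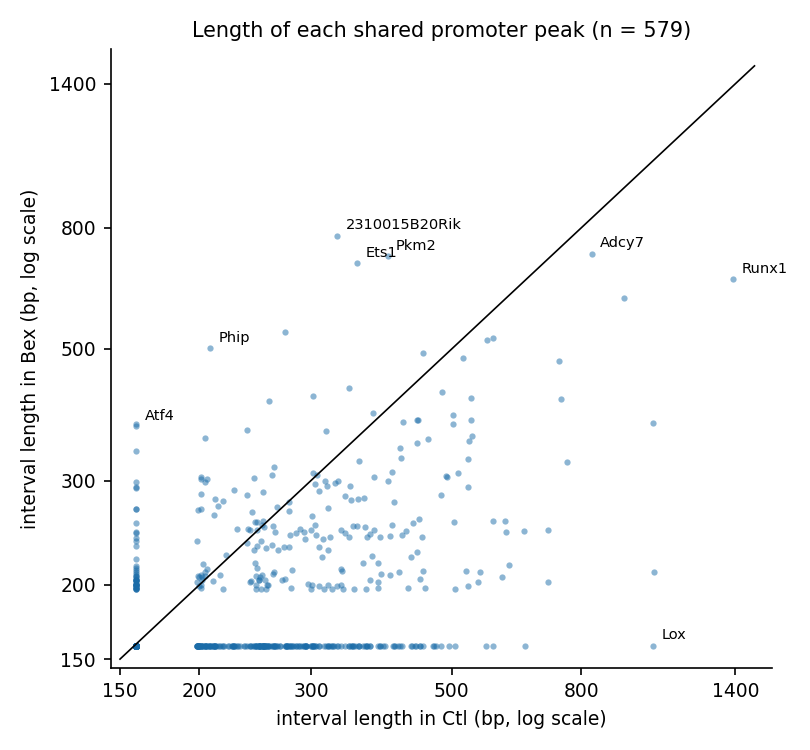
Each point is 1 of the 579 shared promoter peaks, with its interval length in Ctl on the horizontal axis and in Bex on the vertical axis (bp, log scales). The line marks equal length. Most points lie below the line. The row at 158 bp in Bex and the column at 159 bp in Ctl are the smallest intervals the caller gave.

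The longest Bex interval, 776 bp, lay at the gene 2310015B20Rik and was 330 bp in Ctl. Next came Adcy7, which encodes an adenylyl cyclase, with 724 bp in Bex and 831 bp in Ctl. Pkm2, the gene of muscle pyruvate kinase, had 716 bp in Bex and 396 bp in Ctl. These long Bex peaks were therefore not all longer in Bex. Ets1 had 697 bp in Bex and 355 bp in Ctl, while Runx1, another transcription factor gene, had 655 bp in Bex and 1388 bp in Ctl, the longest Ctl interval of all members. The other intervals among the 10 longest in Bex lay at Gm4861 (610 bp), Gtf2a1 (534 bp), Baalc (521 bp), Angpt1 (518 bp) and Phip (501 bp).

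The 5 members with the highest Bex to Ctl length ratio were those at Phip (2.41), Nsun4 (2.35), 2310015B20Rik (2.35), Atf4 (2.33) and Samd1 (2.12). Atf4, the transcription factor of the amino acid and endoplasmic reticulum stress response, had a 371-bp Bex interval over a 159-bp Ctl interval, the smallest the caller gave. At the other end, Lox, the enzyme that cross-links collagen, had a single Ctl interval of 1038 bp that held 2 separate Bex intervals of 375 and 158 bp, the shorter at a ratio of 0.152. ORF63 (0.202), Laptm4a (0.242), the chemokine gene Cxcl1 (0.272) and the repressor gene Bhlhe40 (0.279) followed.

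The sequence around the center was GC rich. Over 201-bp windows the median GC content of the members was 64.7% (quartiles 54.5 and 71.6%) and the median ratio of observed to expected CpG was 0.786. A window with more than 50% GC and a ratio over 0.6 was counted as CpG rich, which 62.9% of members were (58.9 to 66.7%). This share was 63.2% in control-only peaks, a difference of -0.311 points (-4.87 to 4.13). In bexarotene-only peaks it was 79.4%, and members minus bexarotene-only peaks came to -16.5 points (-21.6 to -11.3). Only 1.70% of shared distal peaks were CpG rich, and 48.3% of the windows around all coding TSS.

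Consensus sequences were searched in both strands of the 201-bp windows, and the same search over 45981 windows centered on coding TSS gave the background. Windows of peaks are centered on the peak, so the background is not matched to them in distance from the TSS. A match is a string of letters and not evidence of binding. The GC box stood in 51.1% of members (47.1 to 55.2%), against 38.6% of all TSS windows and 4.76% of shared distal peaks. In control-only peaks the share was 47.0% (members minus control-only 4.16 points, -0.503 to 8.80). In bexarotene-only peaks it was 56.1% (-4.94 points, -10.7 to 0.874). With all transcript starts the latter difference was -11.6 points (-16.8 to -6.26), and with 50% reciprocal overlap -0.873 points (-6.84 to 5.07). The former, in the same order, was 0.106 (-3.89 to 4.16) and 5.96 points (0.771 to 11.1). The Ets core CCGGAA stood in 18.0% of members, 17.2% of control-only peaks, 21.5% of bexarotene-only peaks and 14.1% of TSS windows. The CCAAT box, a common promoter element, was less frequent in members than in TSS windows, at 14.5% against 24.6%, a difference of -10.1 points (-12.8 to -7.00). It was also below that share in control-only peaks (15.3%) and bexarotene-only peaks (18.4%). Members minus these classes came to -0.839 points (-3.98 to 2.64) and -3.94 points (-8.28 to 0.386). Without chromosome 8 the second was -5.35 points (-9.81 to -0.901). With start sites within 500 bp it was -4.70 points (-9.28 to -0.0940), and within 2 kb -1.72 points (-5.72 to 2.23). The half-site TGACG of Atf and Creb factors, which the full site also contains, stood in 21.2% of members and 18.5% of TSS windows. Bexarotene-only peaks had it more often, at 27.7% (difference -6.42 points, -11.4 to -1.42). That interval included 0 when sharing needed 50% reciprocal overlap (-4.04 points, -9.00 to 1.13), when the whole interval was searched (-3.86 points, -8.72 to 1.0), among peaks longer than the smallest length (-3.57 points, -12.7 to 4.72) and in each of the 3 distance bins. The full site TGACGTCA stood in 12 members, 2.07%, and in 1.65% of TSS windows.

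AP-1 sites were more frequent in members than in the other promoter peaks. They stood in 71 members, 12.3% (9.84 to 15.2%), against 2.63% of TSS windows. Those windows are centered on the TSS, and members within 100 bp of it held AP-1 sites in 5.97%. Control-only promoter peaks had them in 7.65%, a difference of 4.62 points (1.86 to 7.75), and bexarotene-only peaks in 4.88%, a difference of 7.38 points (4.15 to 10.7). Among intervals longer than the smallest one of their list, the difference from control-only peaks was 3.02 points with an interval of -1.14 to 7.92. Shared distal peaks held AP-1 sites more often still, in 32.1%.

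**Figure D3:**
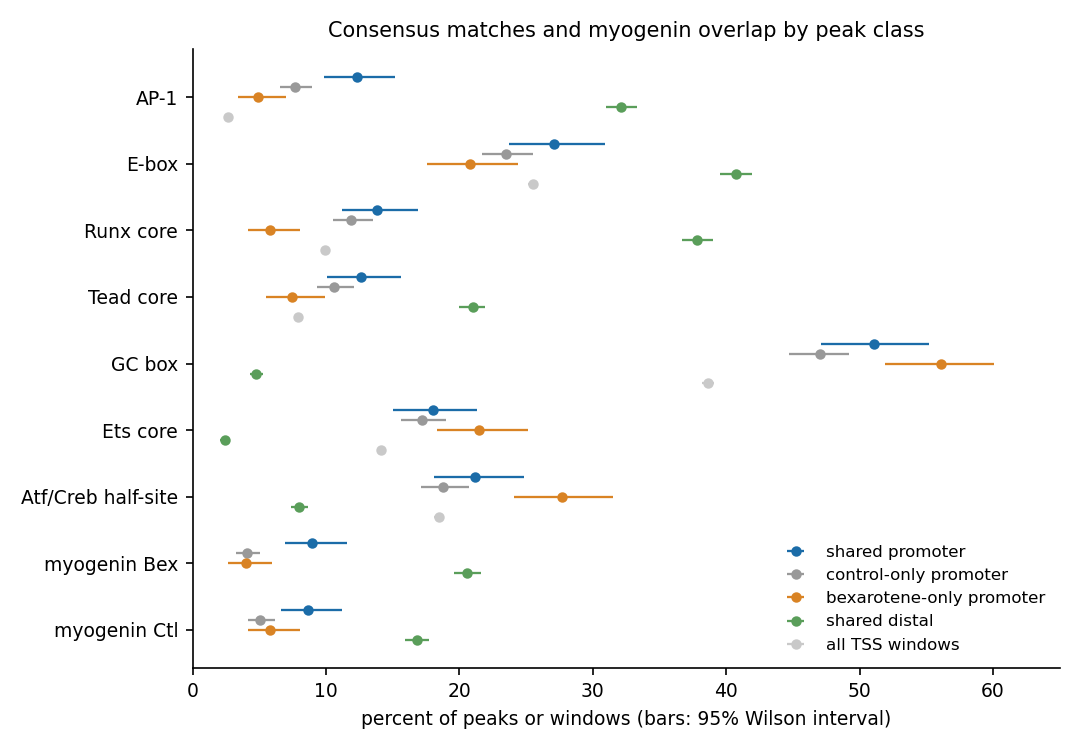
Percent of peaks with a consensus match within 100 bp of the center or overlapped by a myogenin interval (horizontal axis), for 4 classes of p300 peak and, for the consensus rows, all TSS windows. Points are shares and bars are 95% Wilson intervals. Shared promoter peaks sit above the other promoter peaks for AP-1 (12.3%) and for myogenin Bex (8.98%), and below the shared distal peaks for both.

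The AP-1 matches were concentrated at the p300 center. Within 50 bp of it there were 0.984 matches per kb in members, 0.559 in control-only and 0.307 in bexarotene-only peaks. In the bins beyond 50 bp the density in members ranged from 0.0518 to 0.363 per kb. The E-box density fell less, from 1.93 per kb within 50 bp to 1.16 per kb at 450 to 500 bp. The GC box fell from 5.66 to 1.90 per kb over the same range, in a broad slope shared with both other promoter classes.

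**Figure D4:**
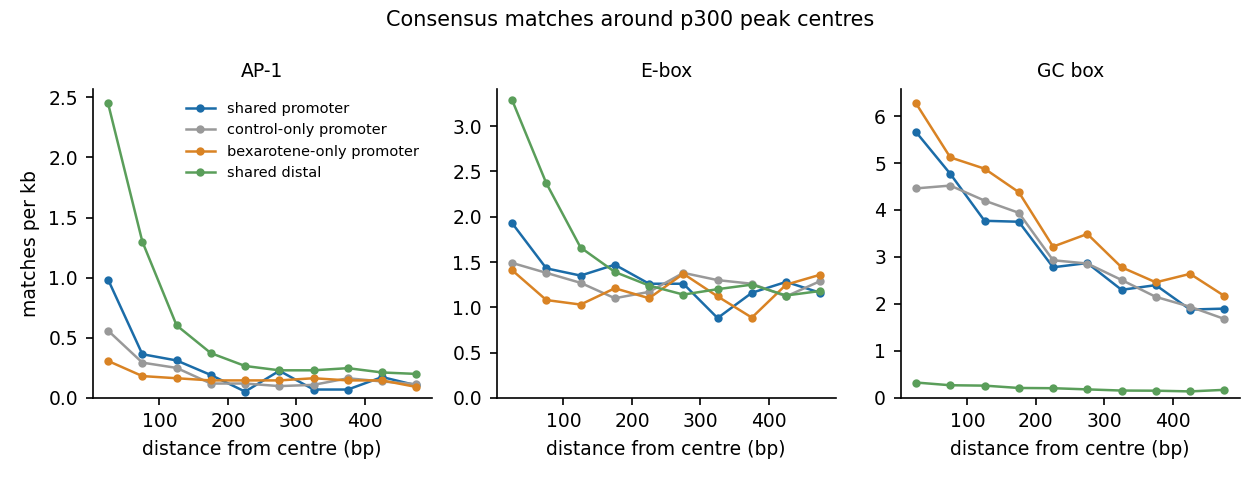
Matches per kb (vertical axes) of the AP-1 site, the E-box and the GC box in 50-bp bins of distance from the p300 peak center (horizontal axes, bp), in 4 classes of p300 peak. In shared promoter peaks the AP-1 density is 0.984 per kb in the first bin and at most 0.363 in the others.

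The Runx core TGTGGT stood in 13.8% of members, 11.9% of control-only peaks and 5.79% of bexarotene-only peaks, in 37.8% of shared distal peaks and in 9.94% of TSS windows. The difference from bexarotene-only peaks was 8.03 points (4.60 to 11.5), and that from control-only peaks was 1.89 (-1.12 to 5.24). The latter was 3.32 points (0.351 to 6.54) with start sites within 2 kb and 4.16 points (1.14 to 7.39) with all transcript starts. Among peaks longer than the smallest length it was 0.170 points (-4.56 to 5.56). The Tead core GGAATG stood in 12.6% of members, 10.6% of control-only peaks, 7.41% of bexarotene-only peaks and 7.89% of TSS windows. The E-box stood in 27.1% of members, 23.5% of control-only peaks, 20.8% of bexarotene-only peaks and 25.5% of TSS windows. Its difference from control-only peaks was 3.58 points (-0.413 to 7.79), and 4.97 points (1.31 to 8.78) with start sites within 2 kb. From bexarotene-only peaks it was 6.32 points (1.34 to 11.2). That interval included 0 with 50% reciprocal overlap (2.88 points, -2.19 to 8.12) and among peaks longer than the smallest length (3.75 points, -5.58 to 12.1). It also included 0 with start sites within 500 bp (5.14 points, -0.0380 to 10.3) and with Ctl intervals as members (4.33 points, -0.566 to 9.19). For the nuclear receptor half-site AGGTCA, to which RXR dimers bind as a pair, the share was 7.25% in members, 8.13% in control-only peaks and 8.14% in bexarotene-only peaks, and 8.92% of TSS windows held it. The CArG box of serum response factor, searched by its usual degenerate form, stood in 4 members, 0.691%, and in 0.755% of TSS windows. TATAAA stood in 5.18% of members and 6.69% of TSS windows.

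These shares depended on how far a member lay from the TSS. Among the 268 members within 100 bp, 66.4% held a GC box, 5.97% an AP-1 site and 20.1% an E-box. Among the 148 members at 301 to 1000 bp, the GC box share was 26.4%, that of AP-1 25.7% and that of the E-box 39.9%. The classes were therefore compared within the same distance bins, a comparison added after the data were seen. At 301 to 1000 bp, members exceeded control-only peaks in AP-1 by 12.2 points (5.06 to 20.2) and bexarotene-only peaks by 18.1 points (8.93 to 26.6). Within 100 bp the AP-1 differences were 1.57 points (-1.27 to 5.29) and 2.18 points (-1.48 to 6.06), and both intervals include 0. At 101 to 300 bp they were 4.11 (-0.365 to 10.0) and 5.33 points (-0.670 to 11.5). The E-box difference from control-only peaks was 14.5 points (6.04 to 23.3) at 301 to 1000 bp, while it was 5.87 points (-1.31 to 13.8) at 101 to 300 bp and -3.85 points (-9.25 to 2.12) within 100 bp. From bexarotene-only peaks the E-box difference was 7.79 points (-4.24 to 19.2), 5.97 points (-3.41 to 15.2) and 3.60 points (-2.82 to 10.1) in the same order of bins, and each of these intervals includes 0.

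**Figure D5:**
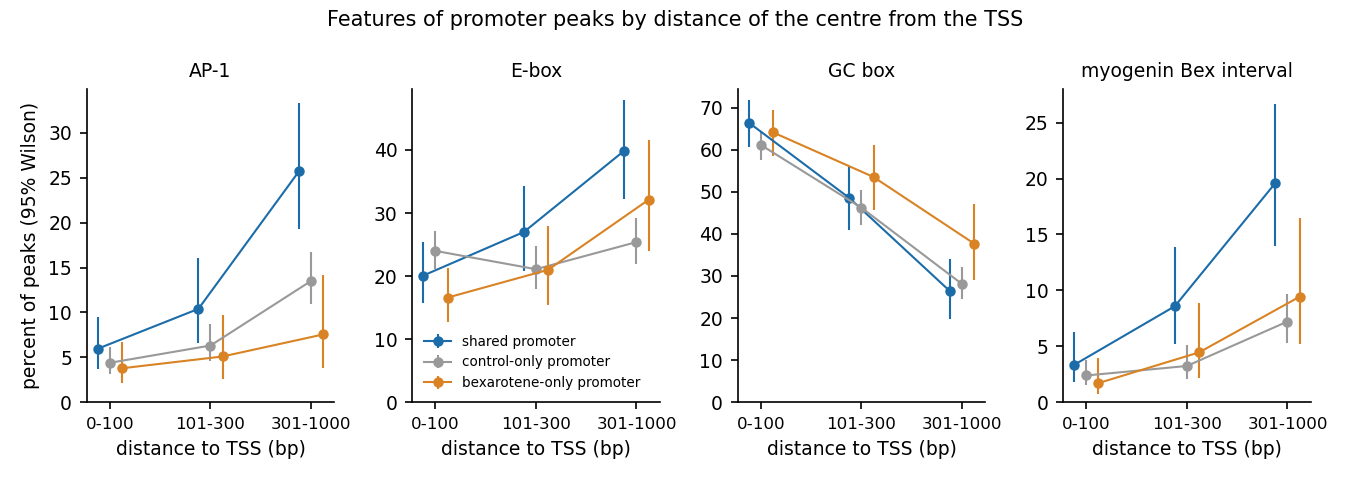
Percent of promoter peaks (vertical axes) with an AP-1 site, an E-box, a GC box or a myogenin Bex interval, by distance of the center from the TSS (horizontal axes, bp), for 3 classes of promoter peak. Bars are 95% Wilson intervals. Shared peaks at 301 to 1000 bp carry AP-1 sites in 25.7% and myogenin in 19.6%, above the other classes in that bin.

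The 71 members with an AP-1 site lay farther from the TSS than the other 508, with median distances of 363 and 103 bp, and their median GC content was 52.7% against 65.7%. Their median Bex to Ctl length ratio was 0.709 against 0.790. Of the 71, 66 held 1 site and 5 held 2. At the Fosl2 peak (-591 bp from the TSS) the interval was 413 bp in Bex and 537 bp in Ctl. The Vim peak at -362 bp, with 2 AP-1 sites, was 241 bp in Bex and 321 bp in Ctl, and the Tagln2 peak at -100 bp was 232 and 277 bp. Tnfrsf12a, the receptor for the cytokine TWEAK, had a peak of 242 bp in Bex and 400 bp in Ctl, and Ryr3, a ryanodine receptor, one of 365 and 238 bp. These last genes were picked after their values were seen.

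Myogenin, the factor that drives terminal myoblast differentiation, was measured in separate libraries, and its lists had no part in the choice of members. A myogenin Bex interval overlapped 52 members, 8.98% (6.91 to 11.6%), and a myogenin Ctl interval 50, 8.64% (6.61 to 11.2%). Over all 9154 p300 Bex intervals the shares were 18.5% for myogenin Bex and 15.3% for myogenin Ctl, and the shares of the members lay below these. Shared distal peaks had myogenin Bex in 20.6%, and the difference from members was -11.6 points (-13.9 to -8.84). The other promoter peaks had it less often than members, in 4.07% of control-only peaks (difference 4.91 points, 2.62 to 7.64) and 3.98% of bexarotene-only peaks (difference 5.00 points, 2.15 to 7.93). The interval of the difference from bexarotene-only peaks included 0 among peaks longer than the smallest length (4.1 points, -2.93 to 9.88) and at 101 to 300 bp from the start site (4.13 points, -1.48 to 9.91). For myogenin Ctl the differences were 3.59 points (1.29 to 6.32) and 2.85 points (-0.191 to 5.91). The first of these became 2.24 points (-0.240 to 5.33) with 50% reciprocal overlap, 1.82 points (-0.390 to 4.56) with start sites within 500 bp and 0.184 points (-2.47 to 3.70) in the bin within 100 bp. The interval of the second lay above 0 with start sites within 2 kb (4.70 points, 1.60 to 7.76), with all transcript starts (4.38 points, 1.42 to 7.26), with Ctl intervals as members (3.96 points, 0.834 to 7.10) and with myogenin centers within 100 bp (3.54 points, 1.33 to 5.88).

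Of the members, 27 had myogenin in both lists, 25 in Bex only and 23 in Ctl only, together 75 or 13.0%. Overlap was higher farther from the TSS, from 3.36% for myogenin Bex within 100 bp to 8.59% at 101 to 300 bp and 19.6% at 301 to 1000 bp. In the farthest bin it exceeded control-only peaks by 12.4 points (6.25 to 19.7) and bexarotene-only peaks by 10.2 points (1.15 to 18.4). Within 100 bp those differences were 0.958 points (-1.13 to 3.99) and 1.63 points (-1.11 to 4.70).

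The E-box was more frequent in members with myogenin than in those without. It stood within 100 bp of the p300 center in 60.0% of the 75 members with a myogenin interval and in 22.2% of the 504 without, a difference of 37.8 points (25.8 to 48.7). In the 27 with myogenin in both lists the share was 70.4%. The GC box was less frequent in members with myogenin, with 28.0% against 54.6% (difference -26.6 points, -36.4 to -14.7). Members with myogenin also lay farther from the TSS, with 24.0% of them within 100 bp against 49.6% of the others. Within distance bins, a comparison added after the data were seen, the GC box difference was -5.69 points (-28.9 to 13.9) within 100 bp, -33.8 (-47.7 to -11.3) at 101 to 300 bp and -12.8 (-25.4 to 4.24) at 301 to 1000 bp. The E-box difference was 20.1 (0.764 to 43.0), 51.0 (28.4 to 66.9) and 31.7 points (13.1 to 47.5) in the same bins. In 31 of the 52 members with myogenin Bex an E-box of the p300 window also lay inside the myogenin interval, and 44 of the 52 myogenin Bex intervals held an E-box somewhere.

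The named members with myogenin Bex and an E-box near the p300 center were those at Pkm2, Angpt1, Krt80, Lims1, Ppfia4, Pvalb, Muc4, Cd63, Lama2 and Chrna1, in order of Bex length. At Chrna1 all 3 E-boxes of the p300 window lay inside the myogenin Bex interval of 303 bp, and the myogenin Ctl interval was 465 bp. At Pvalb, the gene of the calcium buffer parvalbumin of fast muscle, all 4 did. At Pkm2 and Muc4 the E-box of the p300 window lay outside the myogenin Bex interval, and neither had a myogenin Ctl interval. Lama2, which encodes the laminin chain of the muscle basement membrane, had myogenin in both lists.

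Among 54 skeletal muscle genes, 5 had a shared promoter peak, 9.26% against the 2.65% of all coding genes. The genes were Chrna1, Chrnd and Chrng of the acetylcholine receptor, Des (the muscle intermediate filament desmin) and Myh1 (a fast myosin heavy chain). All 5 peaks lay upstream of the TSS, as did 68.0% of all members, and held an E-box, as did 27.1%. The 3 at Chrna1, Chrng and Myh1 were overlapped by myogenin in both lists, against 4.66% of all members. The Chrna1 interval was 246 bp in Bex and 609 bp in Ctl, the Des interval 247 and 423 bp, and the Myh1 interval 158 and 213 bp. The Chrnd interval was 158 bp in Bex and 249 bp in Ctl, and the Chrng interval 158 and 202 bp. All 5 were shorter in Bex by more than 1 bp, as were 369 of all 579 members (63.7%). A further 7 genes of the list had a promoter peak in Ctl only, among them Mef2a, Mef2d, Tnnt1 and Musk, and none had one in Bex only. Over all 22238 coding genes, 1778 (8.0%) had a control-only promoter peak and no shared one, and 576 (2.59%) a bexarotene-only peak and no shared one. Defining genes of the lineage such as Myod1, Myog, Acta1 and Ckm had no p300 promoter peak in either list used here. The nearest p300 centers to the Myod1 TSS lay at 2724 bp in Ctl and -23201 bp in Bex, and those to the Myog TSS at 43134 and 43171 bp. These 4 genes were picked after their values were seen, and no RNA was analysed here to check the cell type.

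Of 38 genes of the actin cytoskeleton and serum response factor program, 10 had a shared peak (26.3%, against the 2.65% of all coding genes). They were Srf itself, Actb, Flnc, Lmna, Myl6, Tagln2, Tpm1, Vim, Wdr1 and Zyx. Their 12 peaks held an AP-1 site in 4 cases (Vim, Tagln2, Zyx and Lmna) and no E-box, against shares of 12.3% and 27.1% over all members. The Srf interval was 277 bp in Bex and 218 bp in Ctl, and the Actb interval at 11 bp was 390 and 376 bp, the 2 of the 12 that were longer in Bex. The Actb interval also held a CArG box. Zyx, the focal adhesion protein zyxin, had 158 bp in Bex and 254 bp in Ctl. Among actin genes without a shared peak, 9 had a control-only peak and 6 a bexarotene-only peak, against 8.0% and 2.59% of all coding genes.

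Of 38 immediate early and AP-1 genes, 8 had a shared peak (21.1%, against the 2.65% of all coding genes), namely Atf3, Cyr61, Dusp1, Fosl2, Gadd45a, Gadd45b, Klf6 and Klf10. Of their 9 intervals, 8 were shorter in Bex by more than 1 bp, against 63.7% of all members, and at Gadd45b both intervals had the smallest length. The lowest ratio, 0.379, was near the Cyr61 start. AP-1 sites stood in 2 of the 9, at Fosl2 and Klf10, against 12.3% of all members. The Atf3 interval, 117 bp upstream of the TSS, was 276 bp in Bex and 405 bp in Ctl and held 5 GC boxes. Of the genes without a shared peak, 9 had a control-only peak and 5 a bexarotene-only peak, against 8.0% and 2.59% of all coding genes. Gadd45g, Jund, Myc and Zfp36l1 were among both, Dusp5, Fos, Junb, Klf4 and Mafk had a Ctl peak alone, and Jun had a Bex peak alone.

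The counts of the remaining lists are read against the 2.65% of all coding genes. For 35 extracellular matrix and TGF-beta genes there were 5 (14.3%, 6.26 to 29.4%), Col12a1, Col6a2, Lox, Ltbp1 and Skil, whose 6 intervals were shorter in Bex by more than 1 bp (ratios 0.152 to 0.775), as were 63.7% of all members. Skil, an inhibitor of Smad signaling, had 216 bp in Bex and 615 bp in Ctl. For 31 retinoid and rexinoid genes there were 4 (12.9%, 5.13 to 28.9%), Plin2, Ppard, Rara and Stra6. Rara, the retinoic acid receptor alpha and a dimer partner of RXR, had the smallest length in both lists, and Ppard, another partner, had 158 bp in Bex and 472 bp in Ctl. A further 9 genes of this list, Rxra and Rxrb among them, had a promoter peak in Ctl without one in the same place in Bex, against 8.0% of all coding genes. For 26 Atf4 and amino acid response genes there were 2, Atf4 and Psat1 (7.69%), with an interval of 2.14 to 24.1% that includes the share of all coding genes. For 29 acetyltransferase and chromatin regulator genes there were 4 (13.8%, 5.50 to 30.6%), Brd2, Hdac5, Hdac7 and Myst3 (the acetyltransferase Kat6a). For 80 ribosomal protein genes there were 8 (10.0%, 5.15 to 18.5%), with 158 to 347 bp in Bex. Without a shared peak, 11 ribosomal protein genes had a control-only peak and 10 a bexarotene-only peak, against 8.0% and 2.59% of all coding genes. Of 64 replication histone genes only Hist2h4 had one (1.56%), and of 33 cell cycle genes none, which allows a share of up to 10.4% by the Wilson interval. Control-only and bexarotene-only counts without a shared peak were 10 and 2 for extracellular matrix genes and 9 and 0 for retinoid genes. They were 5 and 2 for Atf4, 5 and 1 for chromatin regulator, 7 and 2 for histone and 3 and 1 for cell cycle genes.

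These counts depended on the smallest intervals. Among Bex intervals longer than the smallest, 274 genes in place of 589 had a shared peak, with 5 immediate early, 4 actin, 2 skeletal muscle, 4 extracellular matrix, 3 ribosomal protein, 1 Atf4 and 1 histone gene among them and no retinoid or chromatin regulator gene. With 50% reciprocal overlap there were 447 genes in all, with 5 immediate early, 2 extracellular matrix and 1 Atf4 genes among them. With start sites within 500 bp there were 497 genes, 2 of them retinoid genes, and within 2 kb there were 730, with 8 extracellular matrix genes and 1 cell cycle gene.

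The lists were also set against genes with any p300 promoter peak. Of the 2866 coding genes with a p300 promoter peak in either list, 589 had a shared one, 20.6% (19.1 to 22.1%). The same share was 8 of 18 immediate early and AP-1 genes (44.4%, 24.6 to 66.3%), 10 of 23 actin genes (43.5%, 25.6 to 63.2%) and 5 of 12 skeletal muscle genes (41.7%, 19.3 to 68.0%). For ribosomal protein genes it was 8 of 28 (28.6%, 15.3 to 47.1%), for chromatin regulators 4 of 10 (40%, 16.8 to 68.7%), for extracellular matrix genes 5 of 16 (31.2%, 14.2 to 55.6%), for retinoid genes 4 of 13 (30.8%), for Atf4 and amino acid response genes 2 of 7 (28.6%), for cell cycle genes 0 of 4 and for replication histone genes 1 of 10 (10.0%). These lists were chosen with earlier results of the same libraries known and are described by their counts alone.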

How the data were processed

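The authors aligned the p300 reads with Bowtie and the myogenin reads with BWA to mm9, removed duplicates with Picard and called peaks per library with HOMER. The deposited lists hold coordinates alone, with starts given from 0 and neither counts nor scores, so lengths and centers carry the authors' peak threshold. Input chromatin and H3K27me3 libraries were not analysed here. Positions are printed counted from 1. The nearest TSS was sought among 46013 starts of coding transcripts taken from GENCODE for mm9, and genes were matched by symbol, 4 through an older one. Consensus sequences were searched in 201-bp windows with Python 3.11.15, numpy 2.4.6 and pysam 0.24.0. Shares carry 95% Wilson intervals and differences Newcombe intervals. The scripts were tested on simulated data. The members and the gene lists were chosen with earlier results of these data known. Named members were the 10 longest in Bex, the 5 highest and 5 lowest length ratios, all at listed genes, up to 10 with myogenin Bex and an E-box within 50 bp of the center, and those nearest the 1 kb limit. Alternatives changed the overlap, the TSS distance and catalog, the smallest intervals, the list that carries the members, 1 chromosome and the consensus windows.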

Additional observations from a re-analysis of the deposited data

How the results depend on the processing

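The AP-1 differences from both other promoter classes and the myogenin Bex differences from control-only and shared distal peaks kept their direction in each alternative that was run. For the remaining consensus sequences, 7 differences from another promoter class changed sign in 12 cases, distance bins included, and the main interval of each of them included 0. A reciprocal overlap of 50% gave median lengths of 177.5 bp in Bex and 241 bp in Ctl. With a TSS limit of 500 bp, members had myogenin Bex in 6.67%, myogenin Ctl in 6.46%, AP-1 in 9.58% and the GC box in 56.7%, and the myogenin Bex difference from shared distal peaks was -13.9 points. With a limit of 2 kb these values were 12.3%, 11.7%, 15.5%, 43.1% and -8.15 points. With all transcript starts, the median Ctl length was 261 bp, myogenin Bex stood in 12.1%, AP-1 in 15.4%, the GC box in 41.2%, and the myogenin Bex difference from distal peaks was -8.51 points. Only Bex intervals longer than the smallest left 263 peaks at 274 genes, with medians of 242 bp in Bex and 280 bp in Ctl and myogenin Bex in 12.2%. With myogenin centers within 100 bp in place of overlap, the shares were 6.74% for Bex and 5.53% for Ctl. Consensus matches within 50 bp stood in 8.98% (AP-1), 33.9% (GC box) and 16.1% (E-box) of members. Within distance bins, an alternative chosen after seeing the data, the AP-1 difference from control-only peaks was 1.57 points within 100 bp and 12.2 points at 301 to 1000 bp, that from bexarotene-only peaks 2.18 and 18.1 points, and the myogenin Bex difference from control-only peaks 0.958 and 12.4 points. Leaving out chromosome 8, taking the Ctl intervals as members and searching the whole interval moved none of these values outside their main intervals. No paired analysis was possible because each condition has 1 library, so no library could be left out either. Tag depth is not known from the lists, and intervals cover counting error over peaks.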
